A study of Mus musculus with 6 samples.

Results

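The gene group described here holds the TGF-beta ligands Tgfb1, Tgfb2 and Tgfb3, the receptors Tgfbr1, Tgfbr2 and Tgfbr3, Ltbp1 and Ltbp2 of the latent TGF-beta binding protein family, and Tgfbi, a matrix protein named for its induction by TGF-beta. The 9 genes were chosen by symbol, and all 9 were among the 30406 genes listed in all 6 libraries. They were followed across the cell populations of the mouse periosteum before and after tibial fracture, by single-nucleus RNA-seq. The mice were wild-type animals labelled C57BL6 (substrain C57BL/6ScNj in the study's methods), 12 weeks of age, males and females together, and all groups shared this background with no transgene. Uninjured periosteum was represented by 2 libraries, each from the tibias of 4 mice, with the marrow flushed out. Periosteum with its hematoma was collected after open, non-stabilized fracture at day 3 (2 libraries), day 5 (1 library) and day 7 (1 library), each pooled from 4 to 9 mice. Each library is therefore a pool of animals, and p-values for day 3 against uninjured measure the spread between pools. Where classes of nuclei, or their changes, are compared within libraries, p-values measure how much the difference between classes varies between pools.

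TGF-beta is secreted in a latent form, wrapped in its own propeptide and often bound to a latent TGF-beta binding protein that anchors it in fibrillin-rich matrix. Once released, it binds the type II receptor, which recruits and phosphorylates the type I receptor, and SMAD2 and SMAD3 carry the signal to the nucleus. In bone, TGF-beta is known for its large store in the mineralized matrix and for its actions on progenitors, chondrocytes, fibroblasts and osteoclasts.

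The 6 libraries held 13551 barcodes and 55293921 UMIs, and any pair of libraries shared at most 7 barcodes. Nuclei with 200 to 5000 genes, up to 2% mitochondrial and up to 1.5% ribosomal UMIs were kept (8205), clusters of muscle nuclei were removed, and 6420 nuclei remained in 27 clusters. Levels are given as CPM, the UMIs of a gene per 1000000 UMIs of the nuclei summed, for populations with at least 20 nuclei in a library. Intronic UMIs are included, so levels are compared between populations or libraries and not between genes. Populations were named from marker lists: periosteal skeletal stem/progenitor cells (SSPC-like, 241 nuclei), injury-induced fibrogenic cells (IIFC-like, 829), osteoblast-, chondrocyte-, osteoclast-, endothelial-, pericyte/smooth muscle (SMC)-, Schwann-, adipocyte- and several immune-like populations. IIFC-like nuclei were highest for 3 of their 6 markers (Postn, Col3a1 and Col5a1), and SSPC-like nuclei for 3 of 4 (not Dpp4). These checks summed over all libraries. In stromal nuclei the 4 SSPC markers summed to 1679 and 1205 CPM uninjured and 45.2 CPM at day 5. Of these nuclei, SSPC-like ones were 24 of 104 and 76 of 353 uninjured and 58 of 1005 at day 5. How far SSPC-like nuclei kept these markers after fracture was not tested. Their values across days are therefore not to be read as changes within a single cell type. Unnamed clusters are called by their leading genes, of which Brinp1/Fgf7 (589 nuclei) was counted as stromal and Il1b/Gpr141 (371) as immune. The cluster named fibroblast-like (70 nuclei) had its highest level in only 2 of 7 fibroblast markers, so its name is weakly held and its values are not described. The 9 genes and the wider pathway list were not used for clustering. Cell Ranger 6.0.0 had been used for uninjured replicate 1, day 5 and day 7, and 7.1.0 for uninjured replicate 2 and both day 3 libraries, so the software version and the step from day 3 to days 5 and 7 cannot be told apart. The immune nuclei of uninjured replicate 1 stood apart: there were 29 of them with 20043 UMIs, and Ptprc, the pan-leukocyte gene, reached 100 CPM there against 1514 CPM in uninjured replicate 2. Macrophage markers summed to 948 CPM in them against 2927 to 6878 CPM in the immune nuclei of the other libraries, adipocyte markers to 2046 against 78.7 to 446.9 CPM, endothelial markers to 648.6 against 46.5 to 160.1 CPM, and myogenic markers to 1846 against 104 to 1548 CPM. The part of these other markers in the immune values of uninjured replicate 1 was not tested. Intervals in square brackets are exact Poisson 95% intervals and cover counting error only.

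At day 3 the clearest change was in Ltbp2. In stromal nuclei its level was 27.3 and 8.06 CPM in the uninjured libraries and 315 and 256 CPM in the day 3 libraries. In the sum over all nuclei, Ltbp2, Tgfbi and Tgfb1 were higher at day 3 than in uninjured periosteum. Their promoters, 250 bases before to 50 after the start, are shown because these 3 members passed the threshold in that sum. The sum also changes with the cells present, and Tgfb1 passed in no single class of nuclei. The promoters are from RefSeq (GRCm38.p6), which matched 7 of the 9 members with 9 promoters. Capitals mark the SMAD box, CAGAC on either strand (GTCTG on the other), a short sequence that SMAD3 and SMAD4 can bind.
Ltbp2, chr12:84876442-84876741, minus strand: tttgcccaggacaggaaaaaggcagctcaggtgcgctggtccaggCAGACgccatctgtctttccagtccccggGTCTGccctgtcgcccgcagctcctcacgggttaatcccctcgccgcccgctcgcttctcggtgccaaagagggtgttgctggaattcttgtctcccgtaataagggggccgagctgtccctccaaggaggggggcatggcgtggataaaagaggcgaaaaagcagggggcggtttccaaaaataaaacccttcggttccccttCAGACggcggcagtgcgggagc
Tgfbi, chr13:56609336-56609635, plus strand: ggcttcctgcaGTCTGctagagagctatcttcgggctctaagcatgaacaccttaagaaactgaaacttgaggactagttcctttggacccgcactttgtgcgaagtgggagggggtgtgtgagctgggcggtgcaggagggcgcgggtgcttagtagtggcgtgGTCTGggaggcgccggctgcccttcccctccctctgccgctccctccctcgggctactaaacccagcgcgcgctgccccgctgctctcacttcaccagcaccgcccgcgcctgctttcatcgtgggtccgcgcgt
Tgfb1, chr7:25686752-25687051, plus strand: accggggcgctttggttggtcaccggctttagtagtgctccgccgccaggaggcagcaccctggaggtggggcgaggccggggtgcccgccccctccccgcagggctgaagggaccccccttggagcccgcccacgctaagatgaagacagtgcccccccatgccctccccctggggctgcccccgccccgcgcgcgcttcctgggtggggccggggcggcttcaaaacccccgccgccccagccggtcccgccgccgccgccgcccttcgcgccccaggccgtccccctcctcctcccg

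The Ltbp2 window held 3 SMAD boxes, the Tgfbi window 2 and the Tgfb1 window 0. This motif is common, and 49.6% of 32851 mouse promoters of the same length held it. Among the other members, Tgfb2 held 2, Tgfbr2 held 1, the Tgfbr1 promoters held 0 and 1, and the Ltbp1 promoters held 1 and 2. None of the 9 windows held the AP-1 motif TGACTCA on either strand, found in 5.2% of all promoters. The TEAD motif GGAATG was likewise in none on either strand and in 14.7% of all promoters. These matches describe the letters in the windows and say nothing of binding.

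**Figure D1:**
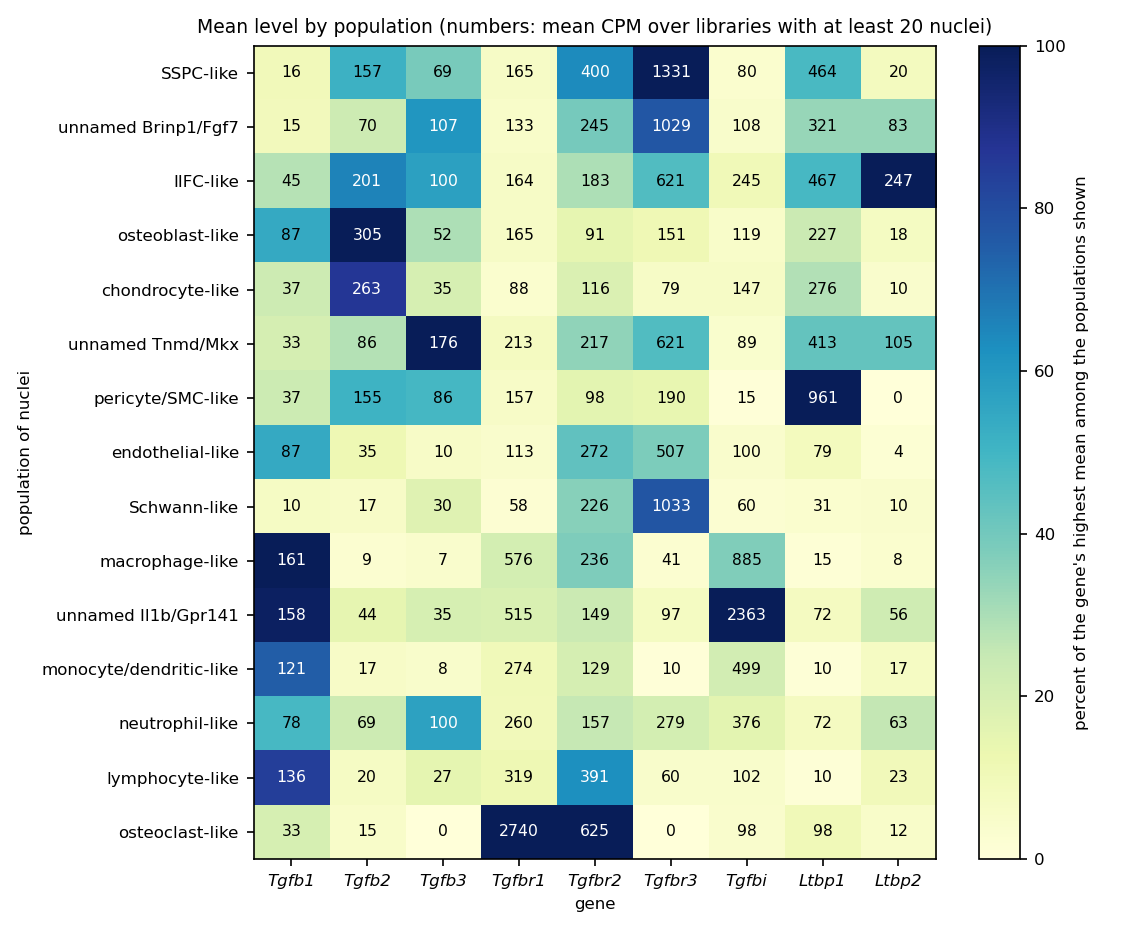
Mean level of each of the 9 genes in 15 populations, in CPM averaged over the libraries with at least 20 nuclei of that population. Rows are populations, columns are genes, and the colour gives the percent of the highest mean shown for that gene. Tgfb1 and Tgfbi were darkest in immune populations, Tgfbr1 in osteoclast-like nuclei, Tgfbr3 in SSPC-like nuclei, Ltbp1 in pericyte/SMC-like nuclei and Ltbp2 in IIFC-like nuclei.

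Among the ligands, Tgfb1 (chr7:25687002-25705077, plus strand, GRCm38) was highest in myeloid and lymphoid nuclei. In macrophage-like nuclei its level was 180 CPM in uninjured replicate 2, 157 and 187 CPM at day 3, 148 CPM at day 5 and 134 CPM at day 7, a mean of 161 ± 22.2 (SD, n = 5 libraries). The Il1b/Gpr141 cluster (158 ± 66.6, n = 4), lymphocyte-like nuclei (136 ± 24.2, n = 2) and monocyte/dendritic-like nuclei (121 ± 33.8, n = 2) followed, and these neighbours did not differ beyond their spread. Endothelial-like nuclei (87.3 ± 35.3, n = 6) and osteoblast-like nuclei (87.1 ± 43.3, n = 4) came next. The lowest of the larger populations were SSPC-like nuclei (15.6 ± 13.5, n = 4) and the Brinp1/Fgf7 cluster (15.1 ± 6.47, n = 6).

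Tgfb2 (chr1:186622792-186705989, minus strand), the isoform whose binding to the signaling receptors depends most on betaglycan, was highest in osteoblast-like nuclei (305 ± 174 CPM, n = 4), chondrocyte-like nuclei (263 ± 193, n = 2) and IIFC-like nuclei (201 ± 94.7, n = 5), with SSPC-like (157 ± 110, n = 4) and pericyte/SMC-like nuclei (155 ± 34.7, n = 4) within that spread. Macrophage-like nuclei had 8.64 ± 5.51 CPM (n = 5). All uninjured levels of IIFC-like nuclei, here and below, come from 36 nuclei of uninjured replicate 2, with 63111 UMIs. The Tgfb2 level in them was 95.1 [34.9 to 207] CPM, from 6 UMIs. In later IIFC-like nuclei it was 227 and 141 CPM at day 3, 344 [321 to 368] CPM at day 5 and 196 [160 to 238] CPM at day 7. The day 5 library was thus the highest and its interval did not overlap that of day 7. Chondrocyte-like nuclei moved the same way, from 400 [361 to 442] CPM at day 5 to 127 [99.2 to 160] CPM at day 7, whereas osteoblast-like nuclei had 270 [231 to 313] and 555 [396 to 755] CPM. Days 5 and 7 had 1 library each, so these differences have no replicate check.

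Tgfb3 (chr12:86056745-86079041, minus strand) was highest in unnamed clusters. The shallow Gm42418/Ttn cluster, which was left unnamed for its myogenic genes, had a mean of 201 ± 133 CPM (n = 2). The cluster led by Tnmd and Mkx, genes of the tendon lineage, had 256 CPM in uninjured replicate 2, 94.0 CPM in day 3 replicate 2, 99.5 CPM at day 5 and 253 CPM at day 7. The Brinp1/Fgf7 cluster (107 ± 77.4, n = 6) and IIFC-like nuclei (100.3 ± 37.3, n = 5) followed within that spread. In stromal nuclei Tgfb3 was 43.7 and 61.8 CPM uninjured, 65.5 and 102 CPM at day 3, 65.0 [58.3 to 72.2] CPM at day 5 and 135 [117 to 154] CPM at day 7. The day 7 library was the highest, with SSPC-like nuclei at 236 [142 to 368] CPM and the Brinp1/Fgf7 cluster at 255 [200.5 to 321] CPM. No Tgfb3 UMI was found in the 48 osteoclast-like nuclei (0 of 194540 UMIs, which allows up to 15.4 CPM).

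Among the receptors, Tgfbr1 (chr4:47353222-47414931, plus strand), the type I receptor kinase, stood highest in osteoclast-like nuclei. It reached 3830 [3526 to 4154] CPM at day 5, from 585 UMIs in 27 nuclei, and 1650 [1284 to 2088] CPM at day 7, from 69 UMIs in 21 nuclei. Macrophage-like nuclei followed at 412 CPM uninjured, 423 and 683 CPM at day 3, 813 CPM at day 5 and 547 CPM at day 7, a mean of 576 ± 172 (n = 5). The Il1b/Gpr141 cluster (515 ± 204, n = 4) did not differ from them beyond that spread. In stromal nuclei Tgfbr1 lay between 113 and 219 CPM in the 6 libraries, and in endothelial nuclei between 85.8 and 141 CPM.

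Tgfbr2 (chr9:116084293-116175360, minus strand), the ligand-binding type II kinase, was the most even member. Osteoclast-like nuclei were highest at 629 [509 to 768] CPM at day 5 and 622 [406 to 911] CPM at day 7, and SSPC-like nuclei had 378 and 381 CPM uninjured, 294 CPM at day 5 and 546 CPM at day 7. The sums of stromal (159 to 228 CPM), endothelial (169 to 487 CPM) and immune nuclei (125 to 277 CPM) overlapped. Within the endothelial nuclei, the cluster led by Mmrn1 and Prox1, genes of lymphatic endothelium, had 408, 845 and 576 CPM in uninjured replicates 1 and 2 and at day 5.

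Tgfbr3 (chr5:107106570-107289629, minus strand), which encodes the co-receptor betaglycan, had its highest mean in SSPC-like nuclei, although in uninjured replicate 1 the Brinp1/Fgf7 cluster was above them. SSPC-like nuclei had 1185 and 2147 CPM uninjured, 1084 [957 to 1223] CPM at day 5 and 906 [710.3 to 1139] CPM at day 7. The limit on their markers after fracture is given above. The Brinp1/Fgf7 cluster had 1322 and 1100.1 CPM uninjured, 1047 and 1291 CPM at day 3, 797 CPM at day 5 and 614 CPM at day 7, so its last time points were its lowest. Schwann-like nuclei (1033 ± 395, n = 2) lay within that spread. In IIFC-like nuclei Tgfbr3 was 919 CPM uninjured, 743 and 907 CPM at day 3, 291 [270.0 to 314] CPM at day 5 and 246 [205 to 293] CPM at day 7. Both later libraries lay below every earlier library. Among endothelial nuclei, the cluster led by Vwf and Selp, genes of venous endothelium, had 753 to 1173 CPM in 4 libraries, against 75.1 and 159 CPM in the cluster led by Gja5 and Bmx, genes of arterial endothelium, in the uninjured libraries. Macrophage-like nuclei had 19.7 to 72.2 CPM, and no Tgfbr3 UMI was found in osteoclast-like nuclei (0 of 194540 UMIs, which allows up to 15.4 CPM).

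Ltbp1 (chr17:75005568-75392512, plus strand), which ties latent TGF-beta to the matrix, was highest in pericyte/SMC-like nuclei of the uninjured periosteum. These had 1933 and 1462 CPM uninjured, 319 [259 to 388] CPM at day 5 and 130 [47.7 to 283] CPM at day 7. The make-up of these nuclei also changed: the cluster led by Myh11, a smooth muscle gene, had 2203 and 1876 CPM in the uninjured libraries and under 20 nuclei in each later library. In the Rgs5 cluster, a pericyte gene, Ltbp1 was 936 and 258 CPM uninjured, 186 CPM at day 5 and 0 CPM at day 7 (28 nuclei, at most 95.1 CPM by the Poisson interval). IIFC-like nuclei went the other way, with 254 CPM uninjured, 299 and 293 CPM at day 3, 960 [921 to 999.7] CPM at day 5 and 528 [467 to 594] CPM at day 7. Among endothelial clusters the level of Ltbp1 was highest in Mmrn1/Prox1, at 480, 213 and 630 CPM, against at most 105 CPM in the others, although the larger Vwf/Selp cluster held about as many UMIs of it (90 against 85).

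Ltbp2 (chr12:84783212-84876532, minus strand), a family member that associates with microfibrils and does not bind latent TGF-beta, was highest in IIFC-like nuclei. Its level there was 31.7 [3.84 to 114] CPM in uninjured replicate 2, from 2 UMIs, 526 and 378 CPM at day 3, 204 [187 to 223] CPM at day 5 and 95.04 [70.3 to 126] CPM at day 7. Both day 3 libraries were above every other library. The Brinp1/Fgf7 cluster had 26.4 and 6.22 CPM uninjured, 93.9 and 172 CPM at day 3, 93.6 CPM at day 5 and 103 CPM at day 7, and the Tnmd/Mkx cluster had 9.84, 260, 114 and 37.4 CPM in uninjured replicate 2, day 3 replicate 2, day 5 and day 7. Osteoblast-like nuclei had 18.2 ± 3.59 CPM (n = 4) and chondrocyte-like nuclei 9.88 ± 6.49 (n = 2). No Ltbp2 UMI was found in pericyte/SMC-like nuclei (0 of 853055 UMIs, which allows up to 3.52 CPM).

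Tgfbi (chr13:56609523-56639562, plus strand), a secreted protein that binds collagens and integrins, was highest in myeloid nuclei. The Il1b/Gpr141 cluster had 5104 and 1175 CPM at day 3, 1457 CPM at day 5 and 1717 CPM at day 7. Macrophage-like nuclei had 427 CPM in uninjured replicate 2, 2120 and 1009 CPM at day 3, 485 [440 to 534] CPM at day 5 and 382 [269 to 526] CPM at day 7, so both day 3 libraries were above the others. IIFC-like nuclei had 174 CPM uninjured, 415 and 281 CPM at day 3, 197 CPM at day 5 and 159 CPM at day 7. Pericyte/SMC-like nuclei had at most 45.5 CPM.

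**Figure D2:**
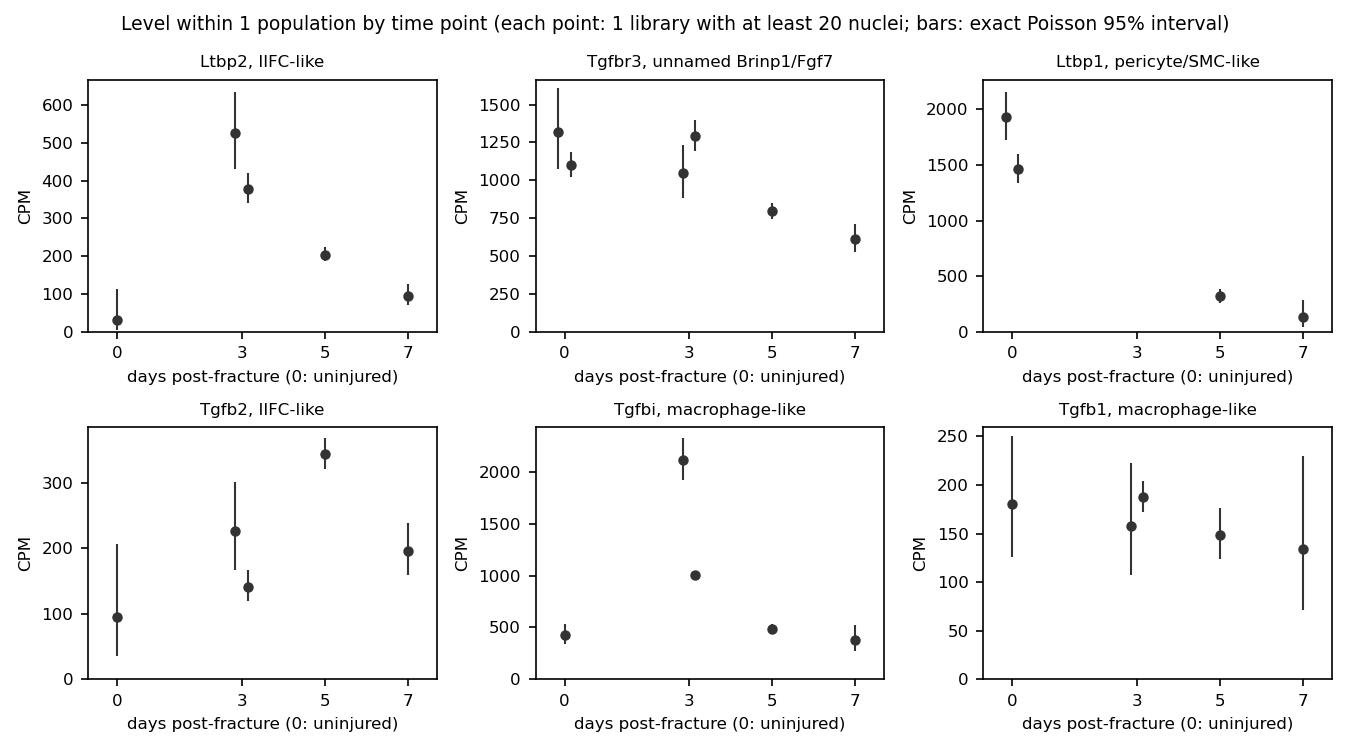
Levels in CPM by day for 6 member and population pairs: Ltbp2 and Tgfb2 in IIFC-like nuclei, Tgfbr3 in the Brinp1/Fgf7 cluster, Ltbp1 in pericyte/SMC-like nuclei, and Tgfbi and Tgfb1 in macrophage-like nuclei. Points are libraries and bars are exact Poisson 95% intervals. Ltbp2 and Tgfbi peak in the day 3 libraries, Tgfb2 is highest at day 5, Tgfbr3 and Ltbp1 are lowest at day 7, and Tgfb1 stays between 134 and 187 CPM.

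The day 3 comparison asked whether each member changed within a class of nuclei between 2 uninjured and 2 day 3 libraries. UMIs were summed per library and tested with edgeR's quasi-likelihood test (two-sided, Benjamini-Hochberg over all genes tested, threshold 0.05). In stromal nuclei 9825 genes were tested and 9.49% passed (3.85% higher and 5.64% lower at day 3), and of the 9 members Ltbp2 alone passed. Ltbp2 rose by 4.54 ± 0.56 on the log2 scale (SE, adjusted p = 0.0011), from 5 and 12 UMIs to 125 and 456 UMIs, and it passed in all 12 alternatives, at log2 3.36 to 5.16. Different clusters held most stromal nuclei in the groups: IIFC-like nuclei were 9 of 104 and 36 of 353 in the uninjured libraries and 65 of 120 and 136 of 260 at day 3. Ltbp2 is also among the 10 leading genes of the IIFC-like cluster, although it was not used to form it.

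Tgfbi in stromal nuclei was 164 and 96.1 CPM uninjured and 330.1 and 223 CPM at day 3, without overlap (log2 1.14 ± 0.42, adjusted p = 0.129 by edgeR). It passed with no filter on low counts (1.25, adjusted p = 0.030), without uninjured replicate 1 (1.49, adjusted p = 0.029) and without day 3 replicate 2 (1.58, adjusted p = 0.0086). Tgfb1 was 16.4 and 20.2 CPM uninjured and 45.4 and 50.5 CPM at day 3, also without overlap (1.26 ± 0.53, adjusted p = 0.186). The smallest p an exact permutation test of 2 against 2 libraries can give is 0.333, so a lack of overlap carries little weight. The share of all genes without overlap was not counted. The 6 macrophage markers also differed in these nuclei, with summed levels of 49.2 and 102 CPM uninjured, with 2 and 5 of the 6 detected, and 242 and 343 CPM at day 3, and Ptprc had 5.47 and 4.03 CPM against 30.2 and 138 CPM. Their part in the Tgfb1 and Tgfbi values was not tested. The remaining members had log2 differences of 0.10 ± 0.35 for Tgfb2, 0.53 ± 0.40 for Tgfb3, -0.41 ± 0.34 for Tgfbr1, -0.09 ± 0.32 for Tgfbr2, -0.41 ± 0.35 for Tgfbr3 and -0.19 ± 0.37 for Ltbp1, with adjusted p between 0.501 and 0.919. Tgfb3 and Tgfbr2 did not overlap between groups either. For Tgfbr3, both day 3 libraries (821 and 992 CPM) lay below both uninjured libraries (1105 and 1218 CPM), and day 5 and day 7 were lower still at 361 [345 to 377] and 295 [269 to 324] CPM. Chondrocyte-like nuclei were 166 of 1005 and 241 of 671 stromal nuclei at days 5 and 7, and at most 7 in any earlier library. The part of this make-up in the Tgfbr3 values was not tested.

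**Figure D3:**
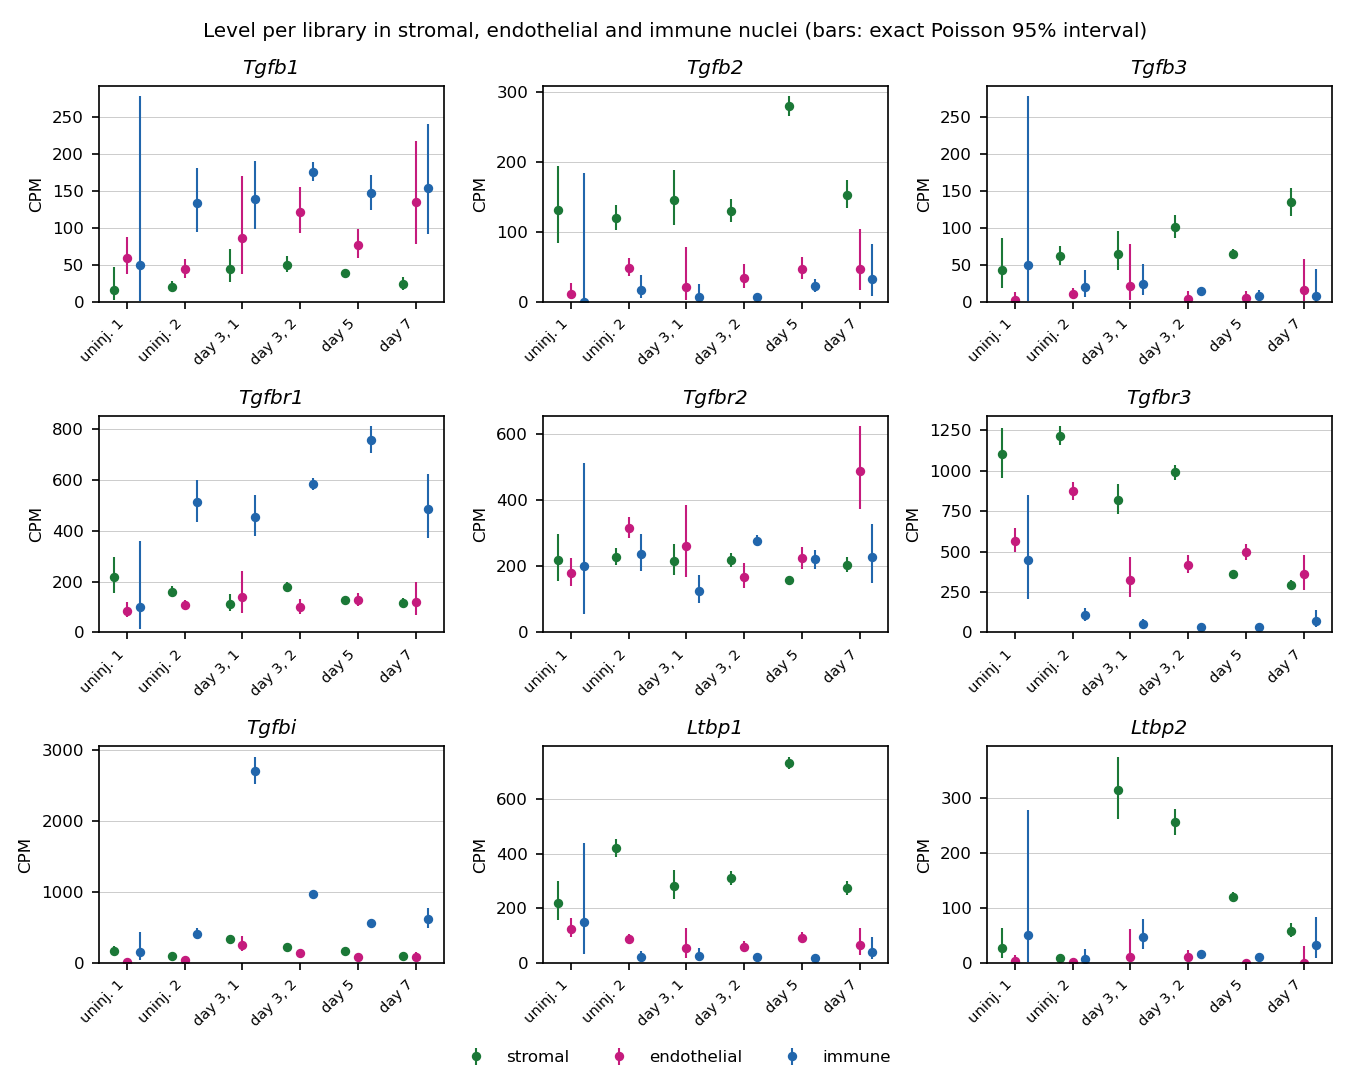
Level of each member in CPM in each of the 6 libraries, for stromal, endothelial and immune nuclei. Points are libraries and bars are exact Poisson 95% intervals. Ltbp2 in stromal nuclei is at 315 and 256 CPM at day 3 against 27.3 and 8.06 CPM uninjured, and stromal Tgfbr3 is lowest at days 5 and 7.

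In endothelial nuclei 6841 genes were tested, 3.8% passed (1.77% higher and 2.03% lower at day 3), and 7 members were tested. Tgfbi rose from 11.9 and 37.4 CPM to 249 and 141 CPM (log2 2.67 ± 0.55, adjusted p = 0.037 by edgeR), from 5 and 45 UMIs to 23 and 71 UMIs. The call was lost without uninjured replicate 1 (2.19, adjusted p = 0.487), day 3 replicate 1 (2.18, adjusted p = 0.137) or day 3 replicate 2 (3.20, adjusted p = 0.387), and it remained under the threshold in 4 of 10 alternatives. Macrophage markers summed to 133 and 192 CPM in the uninjured and 346 and 222 CPM in the day 3 endothelial nuclei, and their part was not tested. Tgfbr3 was 567 and 875 CPM uninjured and 325 and 419 CPM at day 3, without overlap (-1.04 ± 0.30, adjusted p = 0.101). Ltbp1 was 124 and 88.1 CPM uninjured and 54.1 and 55.6 CPM at day 3 (-1.05 ± 0.42, adjusted p = 0.239). The make-up of these nuclei also changed. The Adgrl4/Rasgrp3 cluster held 41 of 210 and 52 of 261 nuclei uninjured. At day 3 it held 26 of 39 and 34 of 67. Vwf/Selp went from 56 and 89 nuclei to 7 and 21, and Gja5/Bmx from 39 and 54 to 4 and 5. Mmrn1/Prox1, highest in Ltbp1, went from 25 and 29 to 2 and 4. Egfl7/Rasip1 went from 49 and 37 to 0 and 3. Mean Tgfbr3 was 883 CPM in Vwf/Selp, 716 CPM in Egfl7/Rasip1 and 554 CPM in Mmrn1/Prox1. It was 471 CPM in Adgrl4/Rasgrp3 and 117 CPM in Gja5/Bmx. The part of this shift was not tested. Tgfb1 was 59.6 and 44.1 CPM uninjured and 86.6 and 121 CPM at day 3 (0.97 ± 0.41, adjusted p = 0.261). Tgfb2, Tgfbr1 and Tgfbr2 had log2 differences between -0.38 and 0.12, with overlapping libraries. Tgfb3 and Ltbp2 were too low to test, with at most 21.6 and 10.8 CPM.

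In immune nuclei no gene of 5465 passed in edgeR, with 342 at an unadjusted p under 0.05, while DESeq2 called 33 genes and no member. The median log2 difference of all genes was 0.17 there. Tgfbi was 150 and 404 CPM uninjured and 2712 and 967 CPM at day 3, without overlap (2.79 ± 1.05, adjusted p = 0.572 by edgeR). The make-up of these nuclei also differed between libraries. Neutrophil-like nuclei were 3 of 29 and 48 of 112 uninjured and 5 of 145 and 156 of 864 at day 3. Il1b/Gpr141 nuclei were 15 and 10 of the same uninjured totals and 30 and 204 of those at day 3. The part of this make-up in the immune values was not tested. Tgfbr3 was 449 and 107 CPM uninjured and 50.1 and 32.6 CPM at day 3 (-2.23 ± 0.78, adjusted p = 0.485), where the high value came from the 29 nuclei of uninjured replicate 1 described above. Tgfbr1 was 99.8 and 514 CPM uninjured and 454 and 583 CPM at day 3 (0.68 ± 0.78), and Tgfb1 was 49.9 and 133 CPM uninjured and 139 and 176 CPM at day 3 (0.59 ± 0.60). Tgfbr2 (-0.04 ± 0.59) and Ltbp2 (1.46 ± 1.34) overlapped between groups, and Tgfb2, Tgfb3 and Ltbp1 were too low to test.

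Over all nuclei together, 12686 genes were tested, 8.5% passed (2.66% higher and 5.83% lower at day 3), and 3 of the 9 members passed, all higher at day 3. Tgfbi was 49.0 and 85.8 CPM uninjured and 1161 and 697 CPM at day 3 (log2 3.80 ± 0.49, adjusted p = 0.020 by edgeR), and it passed in all 9 alternatives. Ltbp2 was 8.72 and 6.64 CPM uninjured and 183 and 83.3 CPM at day 3 (4.198 ± 0.62, adjusted p = 0.023), and it passed in 8 of 9 alternatives, missing without uninjured replicate 2 (adjusted p = 0.0675). Tgfb1 was 32.7 and 35.5 CPM uninjured and 75.6 and 132 CPM at day 3 (1.56 ± 0.34, adjusted p = 0.047), and it was lost without uninjured replicate 1 (adjusted p = 0.181), uninjured replicate 2 (0.183) or day 3 replicate 2 (0.105). Tgfbr1 (1.08 ± 0.32, adjusted p = 0.093), Tgfbr3 (-0.998 ± 0.35, adjusted p = 0.143) and Ltbp1 (-1.35 ± 0.44, adjusted p = 0.116) missed the threshold. Their groups did not overlap, which carries little weight with 2 libraries each. Tgfb2, Tgfb3 and Tgfbr2 had log2 differences of -0.15, -0.01 and 0.00, with overlapping libraries.

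**Figure D4:**
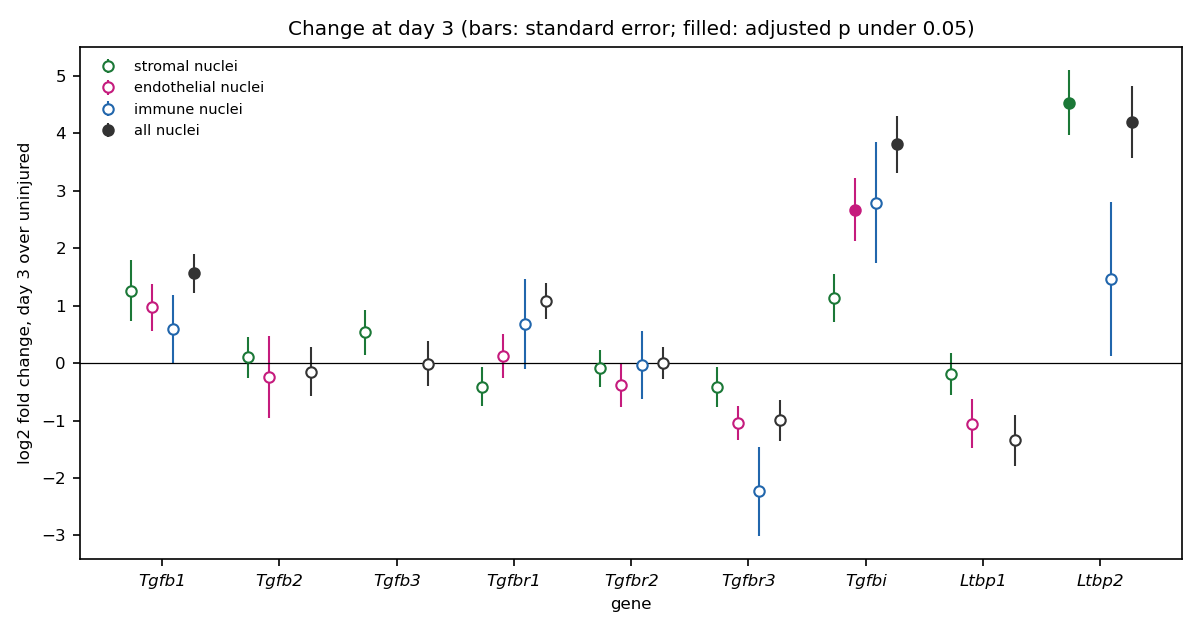
Log2 difference between day 3 and uninjured periosteum for the 9 genes in stromal, endothelial, immune and all nuclei, from edgeR. Points are estimates, bars are standard errors, and filled points have an adjusted p under 0.05. Filled points are Ltbp2 in stromal nuclei, Tgfbi in endothelial nuclei, and Tgfbi, Ltbp2 and Tgfb1 in all nuclei.

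The sum over all nuclei changes with the cells present as well as with the level in each cell. Immune nuclei gave 2.18% and 7.65% of all UMIs in the uninjured libraries and 30.6% and 60.5% at day 3. They gave 3.33% and 28.8% of Tgfb1 UMIs uninjured and 56.5% and 80.6% at day 3, and 6.67% and 36.0% of Tgfbi UMIs uninjured and 71.5% and 83.8% at day 3. For Tgfbr1 the immune share went from 1.71% and 23.0% to 60.2% and 83.4%. Stromal nuclei gave 19.9% and 38.0% of all UMIs uninjured, 43.5% and 25.3% in the day 3 libraries, and 63.7% and 74.1% in those of days 5 and 7, and their shares of single genes are to be read beside these. Most Ltbp2 UMIs came from stromal nuclei in 5 of 6 libraries, at 62.5% and 46.2% uninjured, 74.9% and 77.6% in the day 3 libraries, and 86.9% and 84.8% in those of days 5 and 7. For Ltbp1, nuclei outside the 3 classes, pericyte/SMC-like nuclei among them, gave 77.6% and 44.2% of its UMIs uninjured, 31.1% and 18.0% at day 3, and 10.3% and 9.81% at days 5 and 7. Stromal nuclei gave 9.41% and 47.3% of them uninjured, 62.2% and 67.2% at day 3, and 87.6% and 87.5% at days 5 and 7.

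**Figure D5:**
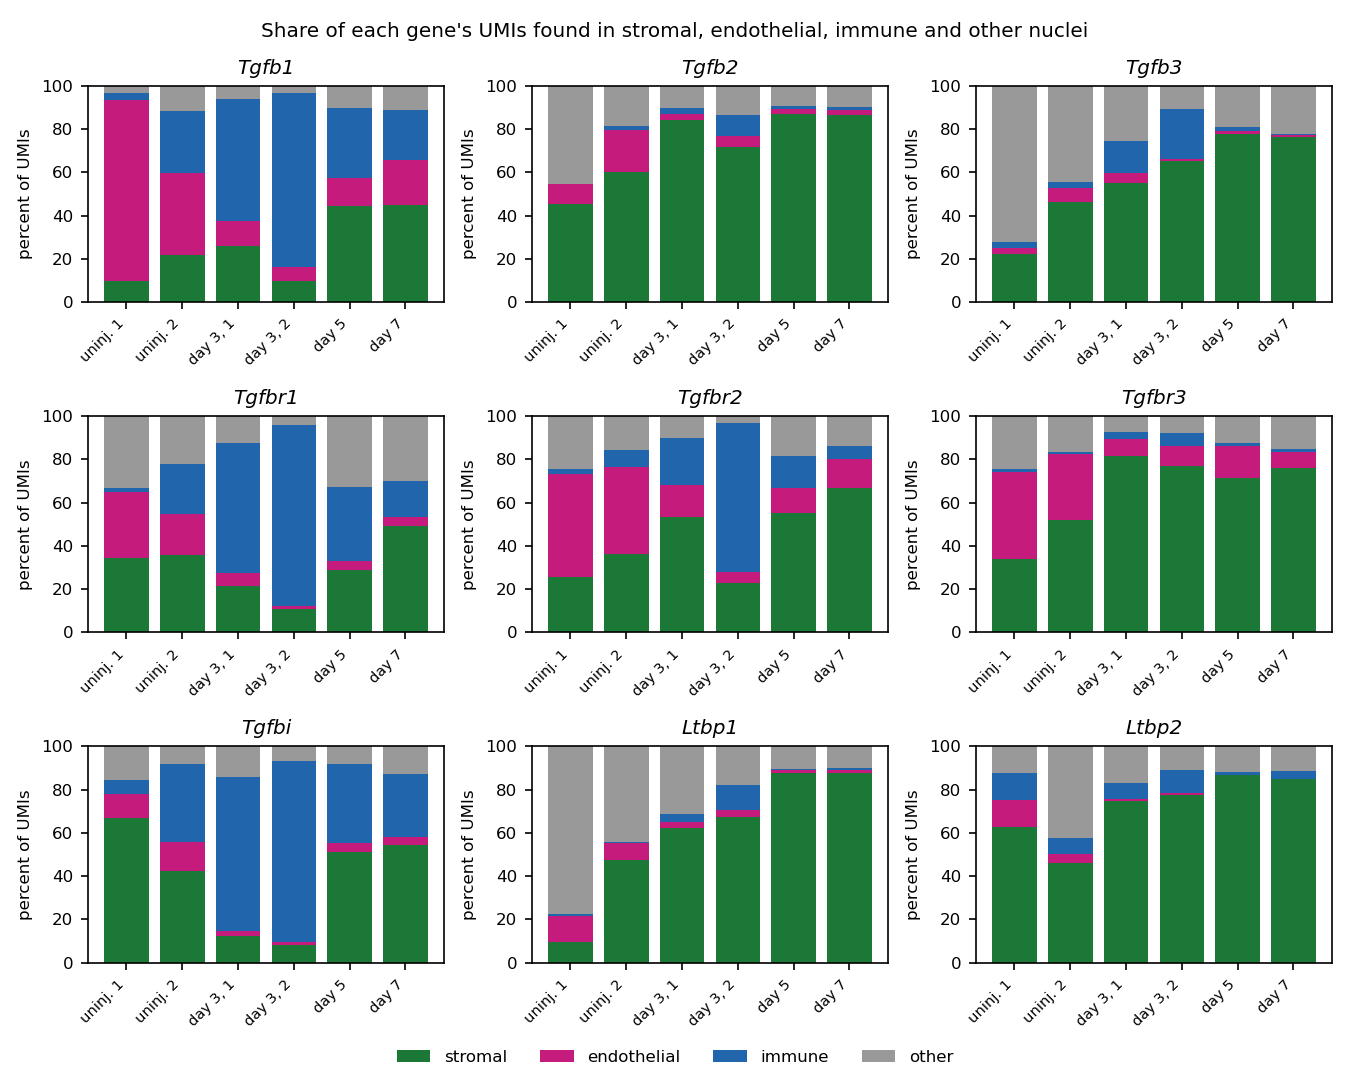
Share of each member's UMIs, in percent, that came from stromal, endothelial, immune and other nuclei in each of the 6 libraries. Each bar adds up to all UMIs of the gene in that library. The immune share of Tgfb1 and Tgfbi is largest in the day 3 libraries, and the stromal share of Ltbp1 is largest at days 5 and 7.

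The classes were also compared with each other within the 6 libraries, with library as a block. Between stromal and endothelial nuclei 30.2% of 10335 genes differed (16.9% higher and 13.2% lower in stromal nuclei), and 6 of the 9 members did. Tgfb2 (log2 2.20 ± 0.26, adjusted p = 5.4e-05), Tgfb3 (3.23 ± 0.32, adjusted p = 1.3e-05), Ltbp1 (2.27 ± 0.28, adjusted p = 7.1e-05), Ltbp2 (5.13 ± 0.45, adjusted p = 5.7e-06) and Tgfbi (1.17 ± 0.31, adjusted p = 0.012) were higher in stromal nuclei in 6 of 6 libraries by edgeR. With no library block 4 of 8 members tested passed, and Tgfbi did not (1.07, adjusted p = 0.193). Tgfb1 was lower in stromal nuclei in all 6 libraries (-1.27 ± 0.23, adjusted p = 0.0013). The receptors did not pass, at 0.51 ± 0.20 for Tgfbr1, -0.22 ± 0.20 for Tgfbr2 and 0.63 ± 0.26 for Tgfbr3, with adjusted p of 0.079, 0.484 and 0.094.

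Between stromal and immune nuclei 42.1% of 10831 genes differed (23.6% higher and 18.5% lower in stromal nuclei), and 8 of the 9 members did. Tgfb2 (3.65 ± 0.31), Tgfbr3 (3.55 ± 0.37) and Ltbp1 (3.97 ± 0.40) were higher in stromal nuclei in 6 of 6 libraries, and Tgfb3 (2.46 ± 0.32) and Ltbp2 (3.12 ± 0.42) in 5 of 6, with adjusted p of 1.6e-05 or less by edgeR. Tgfb1 was higher in immune nuclei in all 6 libraries (-2.00 ± 0.24, adjusted p = 4.6e-06), and Tgfbi (-1.99 ± 0.35, adjusted p = 0.00023) and Tgfbr1 (-1.62 ± 0.36, adjusted p = 0.0014) in 5 of 6. The exception for Tgfbi, Tgfbr1, Tgfb3 and Ltbp2 was in each case uninjured replicate 1, with its 29 immune nuclei. Tgfbr2 had a difference of 0.08 ± 0.25 (adjusted p = 0.833).

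Between endothelial and immune nuclei 37.7% of 8277 genes differed (17.2% higher and 20.5% lower in endothelial nuclei), and 7 of the 8 members tested did. Tgfbr3 (2.85 ± 0.34, adjusted p = 8.1e-07), Tgfb2 (1.35 ± 0.37, adjusted p = 0.0057) and Ltbp1 (1.44 ± 0.31, adjusted p = 0.00076) were higher in endothelial nuclei by edgeR, in 6, 6 and 5 of 6 libraries. Tgfbi (-3.18 ± 0.29, adjusted p = 2.5e-08), Tgfbr1 (-2.17 ± 0.31, adjusted p = 9.7e-06), Ltbp2 (-2.40 ± 0.73, adjusted p = 0.013) and Tgfb1 (-0.86 ± 0.26, adjusted p = 0.012) were higher in immune nuclei. The Tgfb1 call was lost without uninjured replicate 2, day 3 replicate 1, day 3 replicate 2 or day 5 and with no library block (adjusted p = 0.066, 0.062, 0.054, 0.109 and 0.056), and the Ltbp2 call without day 5 (adjusted p = 0.082). The Ltbp2 call rests on low levels, 0 to 10.8 CPM in endothelial and 6.67 to 49.9 CPM in immune nuclei.

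Whether the day 3 change itself differed between classes was tested as an interaction. Stromal and endothelial changes differed for 4.47% of 8675 genes, with the stromal change higher for 1.98% and lower for 2.49%. Stromal and immune changes differed for 3.06% of 7851 genes, with the stromal change higher for 2.04% and lower for 1.02%. No member passed in either test by edgeR. The nearest was Tgfbi, whose day 3 change was smaller in stromal than in endothelial nuclei by 1.36 ± 0.50 on the log2 scale (adjusted p = 0.153 by edgeR). In the former test 1 member had an unadjusted p under 0.05, beside 1157 of 8675 genes. In the latter 2 members did, beside 1038 of 7851 genes, so neither count is far from the background.

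A list of 42 other TGF-beta pathway genes gives the surroundings of the members. In stromal nuclei 39 were tested, 5 rose and 2 fell at day 3, beside 9.49% of all genes, and the list's median log2 difference was 0.30 against 0.01 for all genes. Postn, the matrix protein periostin, went from 115 and 103 CPM to 784 and 1364 CPM (3.23 ± 0.38, adjusted p = 0.00088 by edgeR). Postn is also a marker that named the IIFC-like cluster, so it is no independent result. The fibrillin Fbn2 (3.42 ± 0.51, adjusted p = 0.0027) and Pmepa1, a dampener of SMAD signaling (1.56 ± 0.34, adjusted p = 0.016), also rose. Nrros, which displays latent TGF-beta on myeloid cells, rose from 0 and 3.36 CPM to 58.0 and 56.1 CPM (4.21 ± 0.74, adjusted p = 0.0061), beside the macrophage marker values given above for the same nuclei. The genes that fell were Dcn, the TGF-beta-binding proteoglycan decorin (-2.53 ± 0.51, adjusted p = 0.011), and Ltbp4, another latent TGF-beta binding protein (-2.10 ± 0.40, adjusted p = 0.0094).

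In endothelial nuclei 34 of the 42 were tested, 4 rose and 1 fell at day 3, beside 3.8% of all genes. Pmepa1 rose by 1.91 ± 0.40 on the log2 scale (adjusted p = 0.038 by edgeR). The collagen genes Col1a1 (3.15 ± 0.62) and Col1a2 (2.38 ± 0.47) rose and the fibrillin Fbn1 fell (-1.42 ± 0.30). In the same endothelial nuclei the osteoblast markers summed to 45.3 and 49.9 CPM uninjured and 270.5 and 232 CPM at day 3, and the fibroblast markers to 40.5 and 77.3 CPM and then 119 and 147 CPM. Their part in the collagen values was not tested. In immune nuclei 28 were tested and none passed in edgeR, with 4 at an unadjusted p under 0.05, beside 342 of 5465 genes. Over all nuclei 41 were tested, and Postn, Fbn2, Nrros and Thbs1 were among those that rose while Acta2, Ltbp4 and Eng fell. Acta2, the smooth muscle actin gene, was 455 and 202 CPM uninjured and 11.0 and 35.3 CPM at day 3 and is itself a marker that named pericyte/SMC-like nuclei, which numbered 63 and 64 in the uninjured and 3 and 9 in the day 3 libraries.

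Between the classes, 15 of 41 pathway genes were higher in stromal and 6 in endothelial nuclei, beside 16.9% and 13.2% of all genes, so the endothelial count is near the background. Itgb8, an integrin chain that activates latent TGF-beta (3.08 ± 0.42), Fbn2 (4.09 ± 0.37) and Dcn (3.74 ± 0.33) were on the stromal side. On the endothelial side were Eng, the co-receptor endoglin (-4.22 ± 0.20), Acvrl1, an endothelial type I receptor (-1.40 ± 0.25), Lrrc32, a cell-surface carrier of latent TGF-beta (-1.84 ± 0.61), and Ltbp4 (-1.72 ± 0.23). Against immune nuclei, 22 of 40 were higher in stromal nuclei and 6 in immune nuclei, beside 23.6% and 18.5% of all genes, so the immune count is not above the background. It was led by Nrros (-4.99 ± 0.50), with Furin, the protease that cleaves the TGF-beta propeptide (-1.12 ± 0.24), and the integrin chains Itgb5 (-1.04 ± 0.29) and Itgav (-0.95 ± 0.26). Endothelial nuclei exceeded immune nuclei in 11 of 36, with Eng (4.70 ± 0.32), Ltbp4 (4.55 ± 0.40) and Lrrc32 (3.34 ± 0.63) ahead, and lay below them in 7, with Itgb5 at -3.81 ± 0.30. Over all genes the shares were 17.2% and 20.5%, so the lower count is near the background.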

How the data were processed

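The data were deposited UMI counts per gene and nucleus, made by the authors from 10x 3' single-nucleus libraries of sorted nuclei with the Cell Ranger Count pipeline on mm10, introns and exons included. The submitters' processing notes name mm10 and Cell Ranger, and its versions (6.0.0 and 7.1.0) are in the matrix headers. A protocol label names a human genome, but every gene identifier is a mouse one. Values were used as raw counts. Nuclei were filtered at the study's stated limits (200 to 5000 genes, 2% mitochondrial, 1.5% ribosomal), integrated and clustered with Seurat 5.3.0 (2000 features without the 9 members and the 42 pathway genes, 20 components, resolution 1.3), and clusters rich in myogenic markers were removed. A cluster was named from marker lists, or left unnamed. Scrublet (scanpy 1.11.5) marked 44 nuclei, 0.536% of those kept, at an expected 6%, which is too few to rely on, and no nuclei were removed for it. Removing the 6% of nuclei with the highest scores was an alternative chosen after seeing the data, as were adding the tendon-gene and shallow clusters to the stromal nuclei and using macrophage-like nuclei alone for immune nuclei.

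UMIs were summed per library and class and tested with edgeR 4.0.16 (filterByExpr, TMM, glmQLFit, glmQLFTest, R 4.3.3), with DESeq2 1.42.0 as an alternative. Libraries were the replicates. Replicate numbers are in accession order and only name libraries. The smallest p an exact permutation test of 2 against 2 libraries can give is 0.333. Days 5 and 7 have 1 library each and got no test. On simulated counts, 200 genes were changed by log2 3, up or down, with a common dispersion within each comparison. Of those tested, edgeR recovered 93.5% in stromal nuclei. It recovered 97.5% in endothelial, 61.0% in immune and 92.0% in all nuclei. How recovery depends on the size of the log2 difference was not tested, so these shares do not apply to single members. Library depth was 1499281 UMIs at the lowest (uninjured replicate 1), and UMIs summed over a class in a library ranged from 20043 (immune, uninjured replicate 1) to 5371903 (stromal, day 5).

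The 9 members are named in every comparison. Of the pathway list, the genes past the threshold with the largest absolute log2 difference, up to 5 in each direction, could be named; values of 1 listed gene are not reported here. For each member the 3 genes most like it were found by Pearson correlation of log2(CPM + 10) over population sums. The members, lists and tests were chosen with earlier results of these data known. Gene coordinates are from GENCODE (GRCm38) and promoters from RefSeq (GRCm38.p6).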

Additional observations from a re-analysis of the deposited data

Results flagged for a closer look

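No member of the group was singled out by the test of whether the day 3 change differed between classes of nuclei. Of the 42 other pathway genes 37 were tested in each comparison. By edgeR's interaction test 7 differed between stromal and endothelial nuclei, beside 4.47% of all genes, and 1 between stromal and immune nuclei, beside 3.06%, which is no more than the background. The values below are the stromal change minus the other change, on the log2 scale, with SE and adjusted p. The causes of these differences were not tested.

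Nrros, the myeloid carrier of latent TGF-beta, differed by 4.09 ± 0.66 (adjusted p = 0.00038) from endothelial and by 4.12 ± 0.93 (adjusted p = 0.0016) from immune nuclei. It went from 0 and 3.36 CPM to 58.0 and 56.1 CPM in stromal nuclei, from 73.9 and 141 CPM to 216 and 127 CPM in endothelial nuclei, and from 399 and 654 CPM to 623 and 582 CPM in immune nuclei. Macrophage markers in the stromal nuclei summed to 49.2 and 102 CPM uninjured and 242 and 343 CPM at day 3. Lrrc32 differed by 4.50 ± 1.03 (adjusted p = 0.0091), with 0 and 2.69 CPM uninjured and 22.7 and 19.1 CPM at day 3 in stromal nuclei against 54.8 and 37.4 CPM and then 10.8 and 15.9 CPM in endothelial nuclei. These levels rest on 0, 4, 9 and 34 UMIs in stromal and 23, 45, 1 and 8 UMIs in endothelial nuclei.

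Fbn1 differed by 1.52 ± 0.40 (adjusted p = 0.028), at 1695 and 1028 CPM uninjured and 1293 and 1501 CPM at day 3 in stromal nuclei, and 441 and 637 CPM uninjured and 184 and 240 CPM at day 3 in endothelial nuclei. Acvr1, a type I receptor of the BMP branch, differed by 1.51 ± 0.40 (adjusted p = 0.026), at 104 and 207 CPM uninjured and 315 and 385 CPM at day 3 in stromal nuclei and 115 to 155 CPM in the 4 endothelial sums. Cd109, a TGF-beta co-receptor, differed by -2.32 ± 0.66 (adjusted p = 0.040), at 60.2 and 66.5 CPM uninjured and 45.4 and 27.5 CPM at day 3 in stromal nuclei and 7.15 and 49.9 CPM and then 64.9 and 99.3 CPM in endothelial nuclei. Dcn differed by -1.75 ± 0.46 (adjusted p = 0.027) and Col1a1 by -1.75 ± 0.47 (adjusted p = 0.030). Dcn went from 38.1 and 79.0 CPM to 21.6 and 55.6 CPM in endothelial nuclei, and Col1a1 from 35.7 and 69.8 CPM to 152 and 856 CPM there, against 530.4 and 973 CPM and then 1318 and 2223 CPM in stromal nuclei. Osteoblast markers in the endothelial nuclei summed to 45.3 and 49.9 CPM uninjured and 270.5 and 232 CPM at day 3, and fibroblast markers to 40.5 and 77.3 CPM and then 119 and 147 CPM.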

How the results depend on the processing

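Each comparison was repeated with DESeq2, no filter on low counts, marked doublets or the top 6% of doublet scores removed, no integration, under 1% mitochondrial UMIs, and each library left out in turn, except that the interactions were not repeated without the top 6%. Of 817 values for single members, 738 kept their direction and side of the threshold, 14 newly passed, 17 no longer passed and 48 changed sign. Of the 317 values for members that passed as reported, 300 still passed, 17 did not and 0 changed sign. Each member's mean level was recomputed in the class (stromal, endothelial or immune) where it was highest. With marked doublets removed, no integration or under 1% mitochondrial UMIs, it moved by less than the SD between libraries. Levels of single populations were not recomputed. No paired analysis was possible because replicate numbers only follow accession order and pair no libraries. All nuclei were not refitted with no integration. The cause was not tested for any change below.

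With no filter, 2 members passed at day 3 in stromal nuclei (1 as reported), 2 in endothelial nuclei (1) and 5 in all nuclei (3). In endothelial nuclei 0 passed with no integration, under 1% mitochondrial UMIs or without the top 6%. Leaving out a library gave 1 to 2 in stromal, 0 to 1 in endothelial and 1 to 4 in all nuclei, 5 to 7 between endothelial and immune nuclei (7, and 4 with no library block, as between stromal and endothelial nuclei), and 0 to 2 and 0 to 3 in the interactions with endothelial and immune nuclei (0 each). The highest of these interaction counts came without uninjured replicate 2.

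Signs changed among members that had not passed. With no filter, Tgfbr2 was 0.021 in stromal, 0.32 in immune and 0.079 in all nuclei, Tgfb3 was 0.048 in all nuclei, and Tgfbr2 was -0.0070 between stromal and immune nuclei (-0.0046 without the top 6%). With DESeq2, Tgfb3 (0.018) and Tgfbr2 (0.024) changed in all nuclei, and Ltbp1 (0.55) in the interaction with immune nuclei. IIFC-like nuclei with the fibroblast-like and Brinp1/Fgf7 clusters alone gave 0.28 for Tgfbr2 and 0.59 for Ltbp1, and macrophage-like nuclei alone 0.15 for Tgfbr2. With no integration, stromal Ltbp1 was 0.080, and in the interaction with immune nuclei Tgfb2 was -1.68 (-0.36 under 1% mitochondrial UMIs), Tgfb3 -2.15 and Ltbp2 -2.55. Leaving out a library gave, in stromal nuclei, -0.085 to 0.40 for Tgfb2, -0.18 to 0.12 for Tgfbr2 and -0.56 to 0.41 for Ltbp1. In endothelial nuclei it gave -0.82 to 1.11 for Tgfb2, -0.18 to 0.53 for Tgfbr1 and -0.77 to 0.061 for Tgfbr2. In immune nuclei it gave -0.54 to 0.70 for Tgfbr2 and -0.13 to 2.43 for Ltbp2. In all nuclei it gave -0.69 to 0.31 for Tgfb2, -0.35 to 0.33 for Tgfb3 and -0.15 to 0.21 for Tgfbr2, and between stromal and immune nuclei -0.13 to 0.12 for Tgfbr2. In the interaction with endothelial nuclei it gave -0.081 to 0.75 for Tgfb1, -1.27 to 0.97 for Tgfb2, -1.10 to 1.84 for Tgfb3 and -0.057 to 0.60 for Tgfbr2. In that with immune nuclei it gave -0.95 to 0.85 for Tgfb1, -6.25 to 1.26 for Tgfb2, -0.99 to 0.58 for Tgfbr2 and -0.91 to 2.36 for Ltbp1.

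Calls over all genes moved by over 1.5 times as follows. Stromal nuclei had 932 and 491 without uninjured replicate 2. Endothelial nuclei had 260, and 715 with no filter, 0 without uninjured replicate 1 or day 3 replicate 2, 55 without day 3 replicate 1 and 481 without uninjured replicate 2. Immune nuclei had 0 in edgeR, 33 with DESeq2, 64 with no filter, 9 with no integration or without day 3 replicate 1, 19 without the top 6% and 24 for macrophage-like nuclei. All nuclei had 1078, and 1665 with DESeq2, 2557 with no filter, 483 without uninjured replicate 1 and 549 without uninjured replicate 2. The share of calls that rose there was 31.4%, and 47.7% with no filter and 43.9% without day 3 replicate 1. With no library block there were 1691 in place of 3117 between stromal and endothelial, 2571 in place of 4557 between stromal and immune, and 1820 in place of 3119 between endothelial and immune nuclei. Stromal against immune fell to 2984 without day 3 replicate 2 and 2926 without day 5. The interaction with endothelial nuclei had 388, and 120 with DESeq2 and 192 without day 3 replicate 2. That with immune nuclei had 240, and 28 with DESeq2, 96 with no integration, 497 without uninjured replicate 1, 400 without uninjured replicate 2, 9 without day 3 replicate 1 and 2 without day 3 replicate 2. The share of calls with the larger stromal change was 44.3% and 66.7% in these interactions, and 27.5% and 85.7% with DESeq2. With immune nuclei it was 46.9% with no integration, 56.5% with no filter and 24.2% without uninjured replicate 2, where the median difference of all genes was -1.15. With endothelial nuclei it was 33.9% without day 3 replicate 2.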

Other observations

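The genes whose levels were most like each member over 59 population and library sums (12154 genes, Pearson correlation of log2(CPM + 10)) are given as a description. The sums share libraries, depth and cell populations, so the points are not independent. Tgfb1 was most like Lyn (0.80), Fli1 (0.79) and Fyb (0.77), genes of blood cells or endothelium. Tgfbi was nearest to Tlr13, Sirpb1c and Havcr2 (0.79 each), genes of myeloid cells, and Tgfbr1 to Slc37a2, Abi1 and Pstpip1 (0.79 each). Tgfb2 was nearest to Sobp (0.78), Gli3 (0.77), a transcription factor of the hedgehog pathway, and Bmp1 (0.77), a procollagen proteinase. Tgfb3 came closest to Cacna1g (0.73), Prrx2 (0.73) and Dkk3 (0.72). For Tgfbr3 these were Mpdz (0.88), Nfib (0.86) and Plpp3 (0.84), the closest of any member. Ltbp1 lay nearest to St5 (0.84), Antxr1 (0.82) and Farp1 (0.79), and Ltbp2 to Thbs4 (0.72), Cilp (0.72) and Slc1a3 (0.70). Tgfbr2 had no close match, with Cdkn1b (0.56), Chic2 (0.56) and Kidins220 (0.52). Among pairs of members the highest value was 0.74, for Tgfb2 and Ltbp1.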
